A study of Mus musculus with 4 samples.

Results

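The genes described are the nuclear genes whose symbols mark them as parts of the oxidative phosphorylation complexes of the mitochondrion. They were chosen from the symbols alone (Nduf followed by A, B, C, S or V and a number for complex I, Sdha to Sdhd for complex II, Uqcr for complex III, Cox4 to Cox8 for complex IV and Atp5 for complex V, without the Ndufaf assembly factors) and then kept at a mean of 5 CPM (counts scaled to library size, to a total of 1000000) or more over all 4 libraries. The symbols matched 85 of 24982 genes in the count table, and 76 of these were kept, 35 of complex I, 4 of complex II, 8 of complex III, 12 of complex IV and 17 of complex V. RNA sequencing of polyA RNA was performed on micro-dissected mouse forebrain at embryonic day E10.5. The control group of 2 libraries had the genotype Chd7 +/f, heterozygous for a floxed Chd7 allele. Its label lists no Cre. The conditional knockout (cKO) group of 2 libraries had the genotype Sox1 cre+/-; Chd7 f/f, with Chd7, which encodes an ATP-dependent chromatin remodeller, floxed on both alleles and a Cre named for Sox1, a gene of early neural progenitors. Since Cre and the loss of Chd7 came together, their effects cannot be told apart. How many embryos made up a library is not stated, and the p-values here rest on a spread between libraries that may be technical.

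Oxidative phosphorylation makes most of the ATP of many cell types. Complexes I and II pass electrons from NADH and succinate to ubiquinone, complex III passes them on to cytochrome c and complex IV to oxygen, while complexes I, III and IV move protons across the inner mitochondrial membrane and complex V, the ATP synthase, uses their return to make ATP. All but complex II combine subunits encoded in the nucleus with subunits encoded in mitochondrial DNA. Neural progenitors of the early forebrain are known for a strong use of glycolysis, and the share of oxidative metabolism is known to grow as they become neurons. Many of the nuclear genes are known targets of the transcription factor NRF1 and of the ETS factor GABP.

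No gene of the 5 complexes was called higher or lower in the cKO forebrain. At an adjusted p under 0.05 in edgeR's quasi-likelihood test, 0 of the 76 genes were called, where 3.70% of all 14235 genes tested were called. DESeq2's Wald test and limma-voom also called 0 of the 76. The smallest edgeR adjusted p among the 76 was 0.122, for Ndufa4. The log2 fold changes, given throughout as cKO over control, ran from −0.23 (Ndufa3) to 0.32 (Cox6b2), with a median of 0.04 beside −0.00028 over all genes tested. In size, 53 were under 0.1, 21 lay between 0.1 and 0.2 and 2 were over 0.2.

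The 95% intervals were narrow for most of these genes. Like the p-values, the intervals rest on a spread between libraries that may be technical. The 95% interval of the fold change lay within 1.5-fold in either direction for 74 of the 76 (97.4%), beside 81.1% of all genes with a mean of 5 CPM or more. The 2 exceptions were the least abundant, Cox6b2, with an upper bound of 1.64-fold, and Atp5s, with an upper bound of 1.54-fold. The lowest bound of all was 0.722-fold, for Ndufa3. The interval held 0 on the log2 scale for 69 genes. The SD of the log2 fold change over the 76 genes was 0.0891, and their median standard error (SE) was 0.0652. Over all genes with a mean of 5 CPM or more these values were 0.288 and 0.0883. Those genes were not matched to the 76 for level, in these values or in the shares within 1.5-fold. Whether the 76 were steadier than other genes of like level was not tested.

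**Figure D1:**
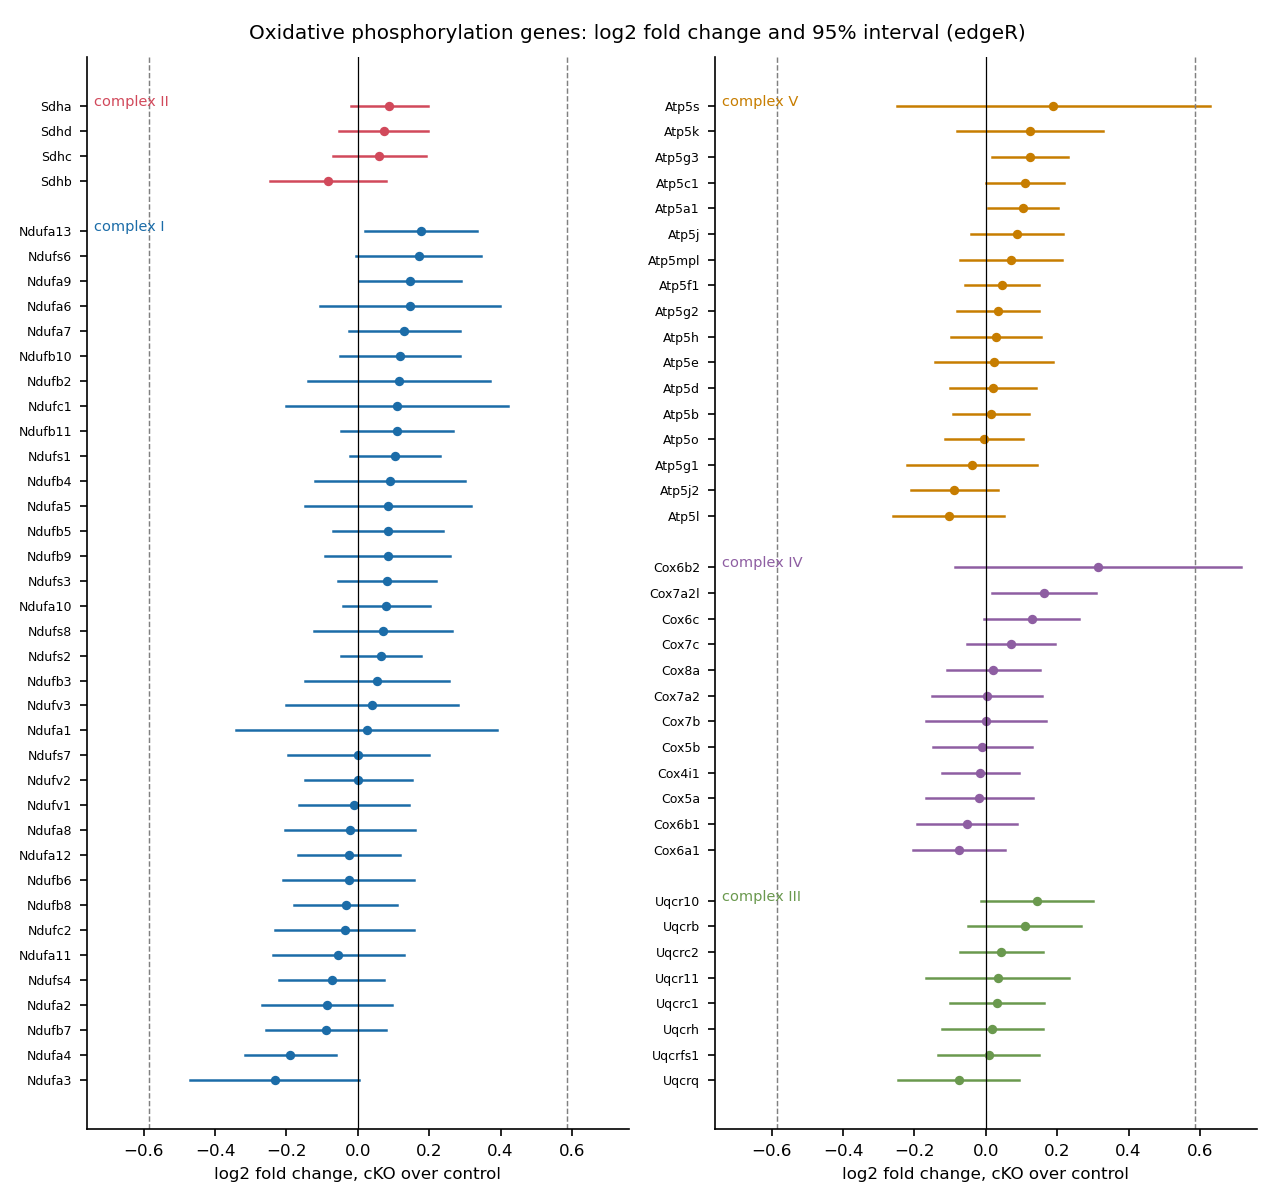
Log2 fold change (points, x axis, cKO over control) and 95% interval (bars) of each of the 76 genes, sorted within its complex, from edgeR. Dashed lines mark 1.5-fold. The bars of Cox6b2 and Atp5s alone cross a dashed line.

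Without adjustment, 6 genes had p under 0.05 with a higher value and 1 with a lower value in the cKO, where 8.43% and 9.10% of all genes tested did. Both cKO libraries lay above both control libraries for 29 of the 76 genes (38.2%) and below both for 6 (7.89%). Over all genes tested these shares were 24.3% and 24.0%. The sign of the log2 fold change was positive for 53 genes and negative for 23. Of the 76 genes, 40 had their highest CPM in cKO replicate 2, 14 in cKO replicate 1, 17 in control replicate 1 and 5 in control replicate 2. The higher values were thus most often those of a single library, cKO replicate 2. Without it the median of the 76 genes was 0.0277, and without cKO replicate 1 it was 0.0623. With 2 libraries a group, an exact two-sided permutation test of a single value cannot go below p = 0.333, so sums over genes are given below as values only.

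The targeted gene and several marker groups did move in the same libraries. Chd7 was at 339 and 345 library-scaled CPM in the controls and 136 and 132 in the cKO libraries (log2 fold change −1.35, SE 0.05, edgeR adjusted p = 8.7e-05). The counts cover all exons, so reads outside the floxed part are included. Library totals were 16581252 to 17096522 counts. The neural progenitor factors Sox3 and Pax6 were detected and were among the 6 of 12 neural progenitor markers called lower. Sox1, the gene the Cre is named for, was another of the 6 (log2 fold change −0.29, SE 0.05, edgeR adjusted p = 0.0311). The part of the Cre in its value was not tested. In the same list Hes1 had higher values in both cKO libraries without passing the test (log2 fold change 0.30, SE 0.08, edgeR adjusted p = 0.0886), and Sox2 (−0.09) and Nes (−0.02) overlapped between the groups. The list summed to 3597 to 4110 CPM in the controls and 3077 to 3219 in the cKO libraries. Of 12 neuron markers 4 were called lower, Elavl3 and Tubb3 among them, and the list summed to 899 to 1101 CPM in the controls and 625 to 657 in the cKO. Of 9 tested erythroid markers 6 were called lower, and the list summed to 2852 to 3071 CPM and 1808 to 1895 CPM. The adult globin genes Hba-a1, Hba-a2, Hbb-bt and Hbb-bs were listed at 0 in every library. Whether the counting lost reads of these adult globin genes was not tested. Of 12 endothelial markers 0 were called by edgeR, but 11 had both cKO libraries below both controls, where 24.0% of all genes tested did. Of the 12, 7 had an unadjusted p under 0.05 with a lower value and 1 with a higher value. The list summed to 344 and 335 CPM in the controls and 288 CPM in each cKO library. Of 11 head mesenchyme markers 0 were called, 3 had an unadjusted p under 0.05 with a lower value, and the list summed to 945 and 1027 CPM in the controls and to 925 and 608 CPM in cKO replicates 1 and 2. In such tissue fewer cells of a type and less RNA per cell cannot be told apart. The part of these shifts in the values of the oxidative phosphorylation genes was not tested. With the erythroid markers taken out before scaling, 0 of the 76 genes were called. That removal takes out only the marker genes and keeps any reads of the 76 genes from erythroid cells, so it cannot show that part.

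**Figure D2:**
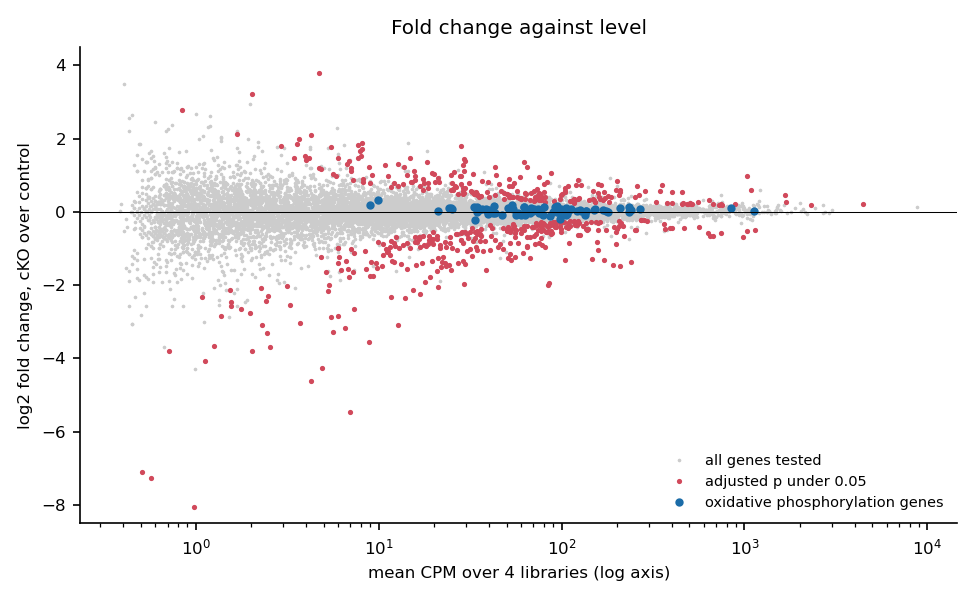
Log2 fold change (y axis, cKO over control) against the mean CPM over the 4 libraries (x axis, log scale) for all 14235 genes tested (grey), genes called at an adjusted p under 0.05 (red) and the 76 oxidative phosphorylation genes (blue). The blue points stay between −0.23 and 0.32, while called genes of like level lie on both sides of them.

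Summed over its genes, each complex differed by a few percent between the groups. Complex I summed to 2067 and 2036 CPM in control replicates 1 and 2 and to 2075 and 2118 CPM in cKO replicates 1 and 2, a ratio of 1.02. Complex II summed to 579 and 569.8 CPM in the controls and 586 and 608 CPM in the cKO (ratio 1.04). These 2 sums did not overlap between the groups, although cKO replicate 1 lay close to the higher control. Complex III summed to 771 and 766 CPM in the controls and 769 and 806 CPM in the cKO (ratio 1.02). Complex IV summed to 1225 and 1221 CPM in the controls and 1217 and 1263 CPM in the cKO (ratio 1.01). In both of these the groups overlapped, with cKO replicate 1 among or under the controls. Complex V summed to 3772 and 3726 CPM in the controls and 3787 and 3954 CPM in the cKO (ratio 1.03), with no overlap. The highest sum of every complex was that of cKO replicate 2, the library with the lowest sum of head mesenchyme markers (608 CPM, beside 925 to 1027 CPM in the others), and the part of this in the sums was not tested. Leaving it out took the log2 ratio of the sums of complex I from 0.0311 to 0.0179, of complex II from 0.0560 to 0.0303 and of complex V from 0.0460 to 0.0162. Together the 76 genes took 0.845% and 0.835% of counts in the controls and 0.844% and 0.865% in the cKO libraries. The median log2 fold change by complex was 0.07, 0.07, 0.03, 0.00 and 0.03 from complex I to complex V. Leaving out cKO replicate 2 took the median of complex III to −0.00614 and that of complex IV to −0.0276. The complexes were not tested against each other.

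**Figure D3:**
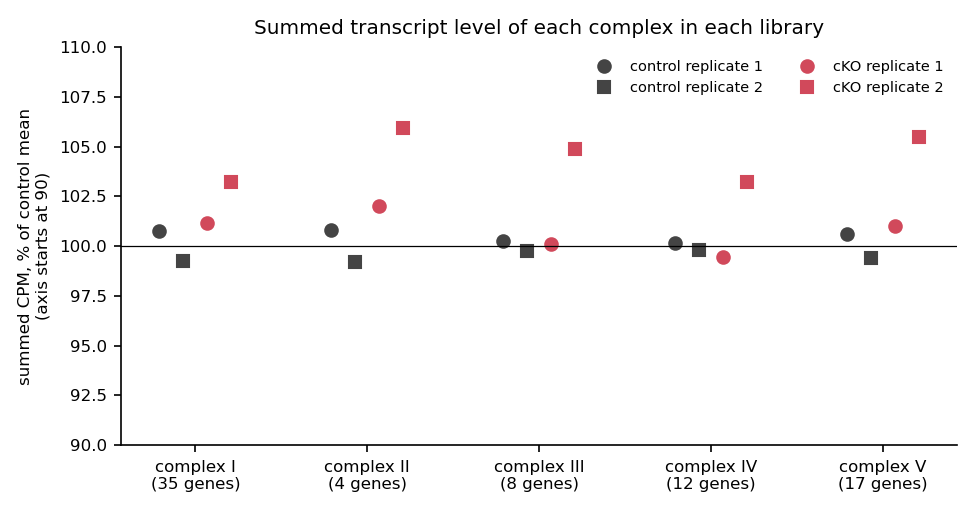
Summed library-scaled CPM of the genes of each complex in each library, as a percentage of the control mean (y axis starting at 90). Dark grey marks are controls and red marks cKO libraries, with circles for replicate 1 and squares for replicate 2. The red squares are the highest mark in all 5 complexes.

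The genes lie on 19 chromosomes, and a promoter window, 250 bases before to 50 after the start in RefSeq's GRCm38.p6 annotation, was at hand for 62 of the 76. The core known to be bound by NRF1, the letters GCGCA and GCGC with 1 base of any kind between them, was found on either strand in 15 of 62 windows (24.2%), beside 11.6% of 8805 windows of genes with a mean of 5 CPM or more and 6.54% of 18203 windows of all genes in the count table. The letters CCGGAAG, an ETS core, were found in 24.2% of the members' windows and in 19.7% and 11.8% of the others. AAGATGGCG, a core of the factor YY1, was found in 9.68% of the members' windows and in 3.62% and 1.95% of the others. At least 1 of the 3 letter runs was found in 31 of the members' 62 windows, in 31.2% of those of genes with a mean of 5 CPM or more and in 18.4% of all, and a window with several was counted for each. A match is a description of the letters and not a measured site. The windows below show the NRF1 letters, because NRF1 is a known regulator of these genes and its letters were more frequent here than in the windows of other expressed genes. Shown are the 6 of the 15 members, none of them of complex III, for which a window of 40 bases around the match lay wholly upstream of the gene as GENCODE draws it, with both windows of Cox6a1. Each is written 5′ to 3′ on the gene's strand, with the match in capitals.
Sdha, chr13:74350314-74350353, minus strand: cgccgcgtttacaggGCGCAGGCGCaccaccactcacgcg
Sdhd, chr9:50603904-50603943, minus strand: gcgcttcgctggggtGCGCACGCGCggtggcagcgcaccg
Atp5h, chr11:115420036-115420075, minus strand: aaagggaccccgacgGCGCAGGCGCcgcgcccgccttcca
Cox6a1, chr5:115349096-115349135, minus strand: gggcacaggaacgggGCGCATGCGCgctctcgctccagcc
Cox6a1, chr5:115349051-115349090, minus strand: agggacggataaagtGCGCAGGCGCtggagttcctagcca
Ndufa11, chr17:56717687-56717726, plus strand: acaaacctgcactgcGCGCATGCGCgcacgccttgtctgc
Ndufb4, chr16:37654535-37654574, minus strand: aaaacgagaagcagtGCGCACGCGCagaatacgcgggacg

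The median log2 fold change was 0.07 for the 15 members with the NRF1 letters (range −0.08 to 0.17) and 0.02 for the 47 without them (range −0.23 to 0.32), and 0 of either were called. Nrf1 itself was at 91.2 and 87.6 CPM in the controls and 78.3 and 78.4 CPM in the cKO libraries. Both cKO values of Nrf1 were lower than both control values, and its log2 fold change of −0.19 (SE 0.06) did not pass the test (edgeR adjusted p = 0.132). Among 19 tested regulators of mitochondrial gene expression, a list that also holds Gabpa, Tfam and the coactivator Ppargc1a, 0 were called higher and 0 lower, and the median was −0.00314. Without adjustment 1 regulator had p under 0.05 in each direction.

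Complex I takes electrons from NADH, and its 7 core nuclear subunits, which carry the flavin and iron-sulfur clusters or the quinone site, had log2 fold changes from −0.01 to 0.10. The other genes of its symbol group encode accessory subunits, except Ndufa4, whose protein is now placed in complex IV. Ndufa4 (GRCm38 chromosome 6, 11900292 to 11907497) was at 104 and 105 CPM in the controls and 89.98 and 93.4 CPM in the cKO libraries. Both cKO values were under both control values, and Ndufa4 had the smallest p of all 76 genes (log2 fold change −0.19, SE 0.05, edgeR adjusted p = 0.122). Its 95% interval ran from −0.32 to −0.06. Ndufa3, an accessory subunit of the membrane arm, was at 38.6 and 34.0 CPM in the controls and 32.3 and 29.5 CPM in the cKO libraries, the lowest log2 fold change of the 76 (−0.23, SE 0.10, adjusted p = 0.293). The controls differed from each other by more than control replicate 2 did from cKO replicate 1.

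At the other end of complex I were Ndufa13, Ndufs6 and Ndufa9. Ndufa13 (chromosome 8, 69894180 to 69902558), also known as GRIM-19, was at 50.8 and 50.2 CPM in the controls and 58.5 and 55.7 CPM in the cKO (log2 fold change 0.18, SE 0.07, edgeR adjusted p = 0.233). The groups did not overlap, but 30.0% of its exon bases are shared with Tssk6 on the opposite strand, and the counting did not use strand. Ndufs6, a zinc-binding accessory subunit, was at 41.2 and 39.4 CPM in the controls and 44.5 and 46.1 CPM in the cKO (0.17, SE 0.08). Ndufa9, which lies close to the quinone site, was at 78.8 and 74.0 CPM and at 85.9 and 83.3 CPM (0.15, SE 0.06, adjusted p = 0.274). Of the 35 genes, 12 had both cKO libraries above both controls and 3 had both below. These shares of 34.3% and 8.57% stood beside 24.3% and 24.0% of all genes tested. Ndufa1, the least abundant of the kept complex I genes in CPM, was at 23.3 and 18.4 CPM in the controls and 23.3 and 19.2 CPM in the cKO libraries, so its replicates differed more than its groups.

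Complex II, succinate dehydrogenase, is shared with the tricarboxylic acid cycle and is encoded wholly in the nucleus. Sdha, the flavoprotein subunit, was at 264 and 257 CPM in the controls and 272 and 282 CPM in the cKO (log2 fold change 0.09, SE 0.05, edgeR adjusted p = 0.383). Sdhb, the iron-sulfur subunit, was at 85.7 and 77.05 CPM in the controls and 75.5 and 78.0 CPM in the cKO (−0.08, SE 0.07). The values of Sdhb overlapped between the groups, those of Sdha did not. The membrane anchors Sdhc and Sdhd had log2 fold changes of 0.06 and 0.07, with adjusted p of 0.656 and 0.55. Sdhc was at 122 and 124 CPM in the controls and 123 and 132 CPM in the cKO libraries. Sdhd was at 107 and 112 CPM in the controls and 115 and 116 CPM in the cKO libraries.

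Complex III, the cytochrome bc1 complex, had 8 kept genes with log2 fold changes from −0.08 to 0.14. Uqcrq, a small subunit, was at 67.1 and 61.6 CPM in the controls and 59.1 and 63.0 CPM in the cKO (−0.08, SE 0.07). Uqcr10, another small subunit, was at 59.8 and 58.2 CPM in the controls and 62.9 and 67.4 CPM in the cKO (0.14, SE 0.07, edgeR adjusted p = 0.328). Uqcr10 was 1 of 3 genes of the complex whose groups did not overlap, all with the higher values in the cKO libraries. That was 37.5% of the 8 genes, beside 24.3% of all genes tested. Uqcrh, the hinge subunit, which is known to bind cytochrome c1, was at 121 and 120 CPM in the controls and 117 and 128 CPM in the cKO libraries, which lay on either side of the controls.

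Complex IV, cytochrome c oxidase, has several subunits with more than 1 gene, used in different tissues. The general forms were the abundant ones in this forebrain. Cox4i1 was at 231 and 236 CPM in the controls and 227 and 235 CPM in the cKO libraries (log2 fold change −0.02, SE 0.05), while Cox4i2, known from lung, had counts of 17 and 12 in the controls and 12 and 14 in the cKO libraries. Cox6a1 was at 111 and 105 CPM in the controls and 102 and 103 CPM in the cKO (−0.08, SE 0.06), and its heart and muscle counterpart Cox6a2 had 0 counts in every library. Cox7a2 was at 66.8 and 62.6 CPM and at 66.2 and 63.5 CPM (0.00, SE 0.07), and Cox7a1, the muscle form, had counts of 8, 14, 10 and 15 in the same order of libraries. Cox8a was at 106 and 110 CPM and at 107 and 113 CPM (0.02, SE 0.06), with 1 count in all for the muscle form Cox8b and 0 for Cox8c. Cox7b had counts of 1424 and 1614 in the controls and 1443 and 1581 in the cKO libraries, and Cox7b2 had 0 counts.

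Among the tissue forms of complex IV subunits only Cox6b2, best known from testis, passed the limit beside its general form. Cox6b2 was at 7.92 and 9.77 CPM in the controls and 10.6 and 11.4 CPM in the cKO, the highest log2 fold change of the 76 (0.32, SE 0.17, edgeR adjusted p = 0.4). Its 95% interval ran from −0.09 to 0.72. Cox6b1, the general form, was at 113 and 104 CPM in the controls and 105 and 105 CPM in the cKO libraries (−0.05, SE 0.06). Cox7a2l, also called SCAFI, is a factor that joins complexes III and IV rather than a classical subunit. It was at 91.7 and 85.6 CPM in the controls and 96.3 and 102 CPM in the cKO, without overlap (0.16, SE 0.06, adjusted p = 0.239). Cox6c, a small subunit, was at 90.3 and 86.0 CPM and at 94.9 and 97.7 CPM (0.13, SE 0.06, adjusted p = 0.304).

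Complex V, the ATP synthase, consists of the catalytic F1 head, the membrane-embedded FO part with its ring of c subunits, and a peripheral stalk. Atp5a1 (chromosome 18, 77773729 to 77782869), the alpha subunit of F1, was at 818 and 819 CPM in the controls and 858 and 901 CPM in the cKO (log2 fold change 0.10, SE 0.04, edgeR adjusted p = 0.266). Atp5c1, the gamma subunit that forms the rotor's shaft, was at 201 and 202 CPM in the controls and 213 and 221 CPM in the cKO (0.11, SE 0.05, adjusted p = 0.283). The cKO values of both lay above the controls, which were close to each other. Atp5b, the catalytic beta subunit, was at 1128 and 1113 CPM in the controls and 1094 and 1170 CPM in the cKO libraries (0.01, SE 0.05), with cKO values on either side of the controls. The 5 F1 genes had log2 fold changes from 0.01 to 0.11, and the 4 genes of the peripheral stalk from −0.01 to 0.09.

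The c ring is built from 1 protein encoded by 3 genes that differ in the import signal. Atp5g3 (chromosome 2, 73908447 to 73911326) was at 224 and 221 CPM in the controls and 238 and 246 CPM in the cKO, with no overlap (log2 fold change 0.12, SE 0.05, edgeR adjusted p = 0.221). Atp5g2 was at 127 and 126 CPM in the controls and 129 and 130 CPM in the cKO libraries (0.03, SE 0.05). For Atp5g2, 87.4% of the 50-base stretches of its transcripts also occur in transcripts of other genes, so its level is uncertain. Atp5g1 was at 59.1 and 58.2 CPM in the controls and 53.6 and 60.6 CPM in the cKO libraries (−0.04, SE 0.08). The groups of Atp5g3 and Atp5g2 did not overlap, by a wide margin for the former and a narrow one for the latter, while those of Atp5g1 did. Among the membrane subunits, Atp5l (subunit g) was at 92.1 and 87.9 CPM in the controls and 79.8 and 87.7 CPM in the cKO (−0.10, SE 0.07), the lowest log2 fold change of the complex, and 84.8% of its 50-base stretches occur in 14 other genes. Atp5s, an accessory coupling factor that the symbol rule includes, was at 9.30 and 7.42 CPM in the controls and 10.2 and 8.81 CPM in the cKO (0.19, SE 0.19).

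Per kilobase of exon (RPKM, with exon lengths from GENCODE M21 on GRCm38), the levels of the 76 genes ranged from 6.02 to 587 with a median of 80.8. The complex medians were 57.3 for complex I, 80.3 for complex II, 96.5 for complex III, 146 for complex IV and 160 for complex V. The most abundant gene of each was Ndufa4 (161 RPKM), Sdha (92.6), Uqcrh (222), Cox4i1 (303) and Atp5b (587). Atp5b was at 591 and 583 RPKM in the controls and 571 and 604 in the cKO libraries, and Atp5a1 at 332 and 333 and at 348 and 360. The single-copy F1 subunits were lower, with Atp5c1 at 116 RPKM, Atp5d at 146 RPKM and Atp5e at 166 RPKM over the 4 libraries. The F1 head is known to hold several copies of the alpha and beta subunits and a single copy of the others. A link between transcript level and subunit copies was not tested. Among the c-ring genes, the counted level of Atp5g3 (321 RPKM) was above that of Atp5g2 (175 RPKM) in every library. Most of the transcript sequence of Atp5g2 also occurs in other genes, so its level, and with it this order, is uncertain. Atp5g1 stood at 12.1 RPKM over an annotated exon length of 4778 bases, the longest of the 76 genes (median 862.5 bases). Whether its transcripts in this tissue have that length was not tested, so its level per kilobase is uncertain. In complex II, Sdha (92.6 RPKM) and Sdhd (91.3 RPKM) did not differ beyond their spread over libraries.

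**Figure D4:**
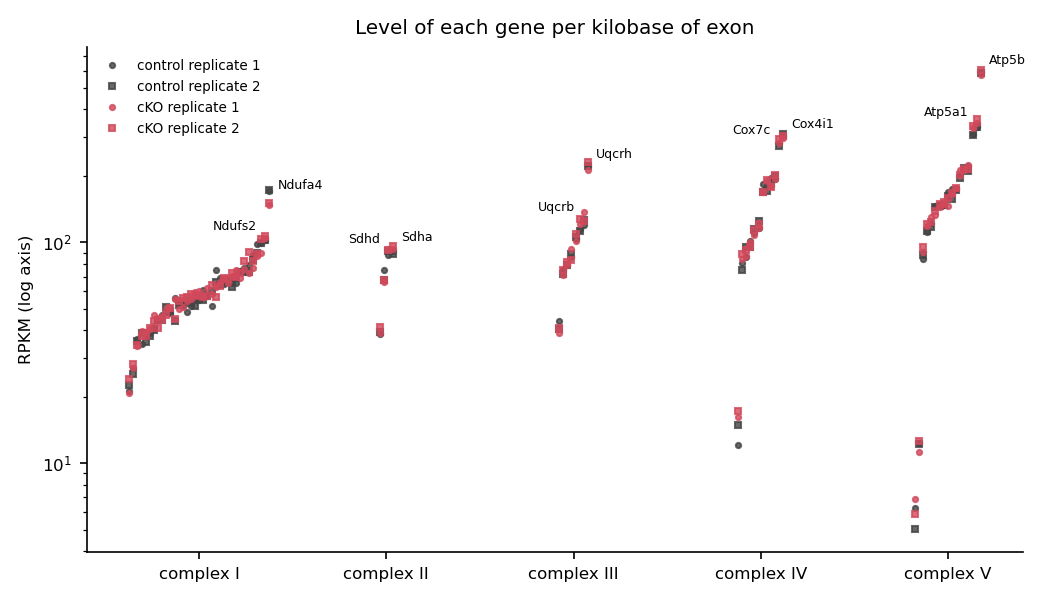
Level of each of the 76 genes in each library per kilobase of exon (y axis, RPKM, log scale), sorted within its complex (x axis). Dark grey marks are controls and red marks cKO libraries, with circles for replicate 1 and squares for replicate 2, and the highest 2 genes of each complex are named. The marks of a gene lie close together beside the span from 6.02 to 587 RPKM.

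Of the 85 matched symbols, 9 were under 5 CPM. Just under the limit were Cox4i2 (0.819 CPM), Cox7a1 (0.697 CPM) and Ndufa4l2 (0.549 CPM), and just above it Atp5s (8.94 CPM), Cox6b2 (9.92 CPM) and Ndufa1 (21.02 CPM), so no gene lay near the limit itself. The others under it were Ndufb4c, Cox8b and 4 with 0 counts in all libraries (Ndufs5, Cox6a2, Cox7b2 and Cox8c). Ndufs5 encodes a general complex I subunit rather than a tissue form. Of its 50-base stretches 41.2% also occur in transcripts of another gene, and the part of this in its count of 0 was not tested. Among the 76 kept genes, 11 share exon bases with an opposite-strand gene of the count table and 28 have over 10% of their 50-base stretches in other genes. The 45 genes with neither had a median log2 fold change of 0.03 and 0 calls, and the other 31 a median of 0.04.

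Genes that work beside the complexes were measured in the same fit. Of 8 further subunits and partners, a list that holds Cyc1 of complex III but also the members Ndufc1, Ndufc2 and Atp5mpl, 0 were called by edgeR, 0 had an unadjusted p under 0.05, and the median log2 fold change was −0.01. The smallest p was that of Atpif1, the ATP synthase inhibitor, at 104 and 100.4 CPM in the controls and 95.9 and 95.5 CPM in the cKO (−0.09, SE 0.05, adjusted p = 0.43). Of 15 complex I assembly genes 0 were called (median 0.05). The smallest p there was that of Ndufaf7, a methyltransferase for a core subunit, at 24.5 and 25.4 CPM in the controls and 32.0 and 29.7 CPM in the cKO (0.31, SE 0.10, edgeR adjusted p = 0.153). Of 32 assembly genes for complexes II to V 1 was called higher and 0 lower (median 0.06), beside 3.70% of all genes tested. The call was Lrpprc, which stabilises mitochondrially encoded mRNAs, at 101 and 99.2 CPM in the controls and 120 and 125 CPM in the cKO (0.29, SE 0.05, adjusted p = 0.0345). That call was lost whichever library was left out (adjusted p from 0.0574 to 0.196) and with the replicate number as a block (0.0708). Beside the same 3.70% of all genes tested, 1 of 20 import genes was called higher and 0 lower (median 0.02). It was Timm23, the channel of the inner membrane translocase, at 50.9 and 55.7 CPM in the controls and 79.8 and 69.2 CPM in the cKO (0.48, SE 0.09, adjusted p = 0.0319). Timm23 was no longer called when control replicate 1 (0.0975) or cKO replicate 1 (0.109) was left out, or with the block (0.0745). The mitochondrially encoded subunits are not analysed here.

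In the authors' deposited table, the log2 fold changes of the 76 genes ran from −0.23 to 0.31 with a median of 0.03. The smallest adjusted p given for them in the authors' deposited table was 0.404.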

How the data were processed

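The authors counted paired-end reads over exons with featureCounts 2.0.1 and deposited the raw count of each gene, per the file headers, which name a RefSeq gene model on mm10. No option for strand, for reads with several positions or for reads over several genes appears in the command they recorded. HISAT2 and DESeq2 stand in the submitters' processing notes, without a version. The authors' deposited comparison table holds log2 fold changes, p-values and adjusted p-values, a test statistic (a score, not used) and normalized counts (a signal, each raw count times 1 constant per library, from 0.987 to 1.01). Sample titles gave the groups, and the number of columns that matched no sample was 0.

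Of the counted genes, filterByExpr (minimum count 10) retained 14235. TMM scaling and edgeR 4.0.16 (glmQLFit and glmQLFTest, in R 4.3.3), with group as the only term, gave the test of cKO against control. Adjusted p-values are Benjamini-Hochberg values over these 14235 genes. The SE was the log2 fold change over the root of F, and 95% intervals used edgeR's degrees of freedom. CPM values use TMM-scaled library sizes, while the 5 CPM limit and RPKM use total counts. Precision depends on library totals of 16581252 to 17096522 counts and on the biological coefficient of variation, 0.0785 in common and 0.0562 in the median of the members. Replicates were checked to be distinct libraries (chi-square per degree of freedom 5.37 for the controls and 4.52 for the cKO).

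Members and lists were chosen with earlier results of these data known. Named are the extremes of each complex, the 10 smallest p, the most abundant gene per kilobase of each complex, complex II, complex IV isoforms, c-ring genes, genes nearest the limit, and called or lowest-p genes of other lists. Other genes, named to illustrate a list, a complex or a sequence, were chosen after their values were seen. The fit was tested on simulated counts. Alternatives comprised other scaling (size factors of DESeq2, the upper quartile, total counts), no filter, DESeq2 1.42.0, limma-voom (limma 3.58.1), the replicate block, each library left out, removal of erythroid markers, and limits of 1 and 20 CPM. Plots used matplotlib 3.10.9.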

Additional observations from a re-analysis of the deposited data

How the results depend on the processing

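Over 12 alternatives 0 members were called, with a smallest adjusted p from 0.0925 (total counts) to 0.404 (DESeq2). Of 172 summary values, 151 stayed close and 21 moved, and of 360 values of 30 named members 19 changed sign, none of them of the 7 members with an unadjusted p under 0.05. The cause of these changes was not tested. The limits of 1 and 20 CPM gave no other count of called members. Leaving out 1 library assumes that the lone library of a group varies like the other group.

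The replicate numbers were not shown to pair the libraries (correlation of deviations of same-numbered libraries −0.0531). With the replicate block 137 genes were called higher over all genes, beside 223, while 0 members were called and 4 had an unadjusted p under 0.05.

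With 1 library left out, 80 (without cKO replicate 2) to 351 (without control replicate 2) genes were called higher, and 131 to 418 lower for the same libraries. The members' median log2 fold change ran from 0.0277 to 0.0623, that of complex I from 0.0324 to 0.0740, of complex II from 0.0365 to 0.0934, of complex III from −0.00614 to 0.0644, of complex IV from −0.0276 to 0.0447 and of complex V from 0.0295 to 0.0729. The log2 ratio of the summed level ran from 0.0179 to 0.0475 for complex I, from 0.0303 to 0.0846 for complex II, from 0.00275 to 0.0707 for complex III, from −0.00609 to 0.0477 for complex IV and from 0.0162 to 0.0786 for complex V.

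Signs changed for 9 uncalled members near 0. Cox7a2 was −0.00970 with total counts. Cox7b was −0.000717 with DESeq2 size factors, −0.0132 with total counts, −3.27e-05 without the filter and −0.00145 with DESeq2.
 With 1 library left out, the log2 fold change ran for Atp5g1 from −0.129 to 0.0498, for Cox4i1 from −0.0396 to 0.0113, for Cox6b1 from −0.111 to 0.00793, for Cox7a2 from −0.0421 to 0.0514, for Cox7b from −0.0735 to 0.0799, for Cox8a from −0.0155 to 0.0607, for Ndufa1 from −0.137 to 0.208, for Uqcrh from −0.0485 to 0.0849 and for Atp5b from −0.0327 to 0.0638.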

Other observations

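The mitochondrial ribosome translates the subunits encoded in mitochondrial DNA. Of 78 tested genes with Mrpl or Mrps symbols, 0 were called by edgeR, 1 had an unadjusted p under 0.05 in each direction, and the median log2 fold change was 0.03, with a range from −0.24 to 0.20. Both cKO libraries lay above both controls for 23.1% of these genes and below both for 14.1%, beside 24.3% and 24.0% of all genes tested. The smallest adjusted p was 0.193, for Mrps27.

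Of 22 genes of the tricarboxylic acid cycle and pyruvate dehydrogenase, 0 were called by edgeR, and the median was 0.07. An unadjusted p under 0.05 with a higher value in the cKO was found for 2 (9.09%), beside 8.43% of all genes tested. With a lower value it was found for 0. Pdk1, a kinase that inhibits pyruvate dehydrogenase and so the entry of pyruvate into the cycle, was at 82.5 and 93.6 CPM in the controls and 103 and 135 CPM in the cKO libraries (log2 fold change 0.43, SE 0.12, edgeR adjusted p = 0.122). Over the alternatives its adjusted p ran from 0.0141 to 0.408, and it was under 0.05 with DESeq2's Wald test (0.0141), with the replicate block (0.0466) and without cKO replicate 1 (0.0163).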
